A study of Mus musculus with 24 samples.

Results

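Chromatin accessibility was examined at the loci of 10 genes known as tumour suppressors of germinal center (GC) B-cell lymphomas: Sgk1, Klhl6, Fbxw7, Fbxo11, Arid1a, Tet2, Mga, Smc3, Tnfrsf14 and Btg1. A peak of the consensus ATAC-seq peak set belonged to a locus when it overlapped the mm10 gene body extended by 50 kb on each side. This rule gave 145 of the 65483 peaks, and no peak fell in more than 1 locus. A promoter peak lay within 1 kb of a protein-coding transcript start of the gene, which held for 14 peaks, and the other 131 were distal. Of the distal peaks, 8 lay at promoters of neighbouring genes and 123 lay elsewhere.

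In mm10 the gene bodies lie at chr10:21882184-21999903 (Sgk1, + strand), chr16:19946496-19983037 (Klhl6, - strand), chr3:84815268-84979198 (Fbxw7, + strand), chr17:87990859-88065291 (Fbxo11, - strand) and chr4:133679008-133756769 (Arid1a, - strand). The others lie at chr3:133463679-133545139 (Tet2, - strand), chr2:119897228-119969581 (Mga, + strand), chr19:53600398-53645833 (Smc3, + strand), chr4:154921933-154928563 (Tnfrsf14, - strand) and chr10:96617006-96622809 (Btg1, + strand). Between 6 peaks (Tet2) and 24 peaks (Fbxw7) fell in each locus.

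ATAC-seq maps open chromatin as the DNA that a transposase can reach, and the libraries came from 60000 live GC B cells sorted from mouse spleen 10 days after immunization with sheep red blood cells (SRBC). There were 4 WT libraries (Cγ1-cre/+), 4 C libraries (Cγ1-cre/+; Crebbp fl/+), 4 K libraries (Cγ1-cre/+; Kmt2d fl/+) and 5 CK libraries (Cγ1-cre/+; Crebbp fl/+; Kmt2d fl/+), 1 mouse each, from young adult mice on a C57BL/6J background. All groups, WT included, carried the Cre allele, which is transcribed from the Ighg1 locus in activated B cells, so that 1 allele of each floxed gene would be deleted in B cells that entered the GC reaction. The share of sorted cells that had recombined was not measured here, and counts in peaks do not show whether the floxed exons were lost.

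CREBBP acetylates histone H3 lysine 27 and KMT2D methylates histone H3 lysine 4 at enhancers, and both enzymes are recurrently inactivated in follicular lymphoma. The 10 genes act in separate systems. KLHL6, FBXW7 and FBXO11 are substrate adaptors of ubiquitin ligases, ARID1A, TET2, MGA and SMC3 act on chromatin, and SGK1, TNFRSF14 and BTG1 act in signalling and growth control. They are recurrently mutated or deleted in lymphomas of GC B cells or in related blood cancers.

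The following sequences come from the sites on which the results below turn, namely both intronic Sgk1 peaks, the intronic and the promoter peak of Klhl6, and the peak beyond the Arid1a gene. The first 4 are the central 300 bases of the peak in the mm10 (GRCm38) genome, on the strand of the gene. The last is the 250 bases before the RefSeq start of Klhl6 (GRCm38.p6), 1 of the 10 genes that were all found in the RefSeq promoter table. Capitals mark matches, on either strand, to 1 of 10 short motifs.
Sgk1 intron, chr10:21906391-21906690, + strand: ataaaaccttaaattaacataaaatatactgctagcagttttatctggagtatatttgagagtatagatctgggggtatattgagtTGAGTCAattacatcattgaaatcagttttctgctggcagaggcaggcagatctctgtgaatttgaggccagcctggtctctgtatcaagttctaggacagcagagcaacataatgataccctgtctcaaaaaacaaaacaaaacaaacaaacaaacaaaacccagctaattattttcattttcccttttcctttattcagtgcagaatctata
Sgk1 intron, chr10:21947327-21947626, + strand: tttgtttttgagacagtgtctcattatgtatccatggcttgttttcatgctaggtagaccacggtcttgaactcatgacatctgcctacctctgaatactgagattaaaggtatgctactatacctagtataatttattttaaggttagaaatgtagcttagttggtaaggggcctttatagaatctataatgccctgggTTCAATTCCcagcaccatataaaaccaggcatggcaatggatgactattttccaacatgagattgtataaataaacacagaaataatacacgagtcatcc
Klhl6 intron, chr16:19961303-19961602, - strand: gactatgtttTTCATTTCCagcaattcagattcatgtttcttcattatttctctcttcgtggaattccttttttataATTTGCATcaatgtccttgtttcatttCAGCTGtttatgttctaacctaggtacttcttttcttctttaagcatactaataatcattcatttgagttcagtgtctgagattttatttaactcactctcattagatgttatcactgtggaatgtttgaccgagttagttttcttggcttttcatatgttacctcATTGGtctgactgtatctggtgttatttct
Arid1a flank, chr4:133659759-133660058, - strand: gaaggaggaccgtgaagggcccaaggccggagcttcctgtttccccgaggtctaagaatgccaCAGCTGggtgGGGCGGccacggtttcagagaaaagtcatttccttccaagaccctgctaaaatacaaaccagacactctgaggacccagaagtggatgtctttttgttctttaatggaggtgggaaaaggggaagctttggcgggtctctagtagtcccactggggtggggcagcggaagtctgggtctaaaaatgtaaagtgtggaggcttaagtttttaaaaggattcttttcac
Klhl6 promoter, chr16:19983050-19983299, - strand: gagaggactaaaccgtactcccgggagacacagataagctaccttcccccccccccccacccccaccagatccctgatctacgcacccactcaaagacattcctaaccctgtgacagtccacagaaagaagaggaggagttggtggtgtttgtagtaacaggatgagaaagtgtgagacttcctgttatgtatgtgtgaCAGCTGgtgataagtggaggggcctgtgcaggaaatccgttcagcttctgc

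The motifs searched were PU.1/SPIB (GAGGAAGT), octamer (ATGCAAAT), AP-1 (TGANTCA), E2A (CAGCTG), ETS-IRF (GGAANNGAA), NFY (CCAAT), SP/KLF (GGGCGG), CRE (TGACGTCA), NRF1 (GCATGCGC) and E-box (CACGTG), and no match printed here overlapped another. The Klhl6 intronic window held the most matches of the 5 sequences, with an ETS-IRF match at bases 11 to 19, the octamer at bases 78 to 85, E2A at bases 105 to 110 and NFY at bases 271 to 275. The octamer, the element bound by OCT2 and its B-cell coactivator OCA-B, was held by 4.17% of the central 300 bases of all peaks. ETS-IRF was held by 10.9% of these windows, E2A by 17.2%, NFY by 29.8%, AP-1 by 8.92% and SP/KLF by 17.6%. The first Sgk1 window held AP-1 at bases 87 to 93 and the second held ETS-IRF at bases 201 to 209. The Arid1a window held E2A at bases 64 to 69 and SP/KLF at bases 74 to 79. The Klhl6 promoter held E2A at bases 200 to 205, a motif found in 13% of the 250 bases before 32851 RefSeq starts. None of the 5 held PU.1/SPIB, CRE, NRF1 or the E-box, which 5.84%, 0.623%, 1.06% and 5.88% of peak windows held. A match is a run of letters and does not show binding.

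Libraries held 17483706 to 21857738 fragments in peaks, with a median of 85 fragments per peak and library. Accessibility is given in CPM, the fragments of a peak per 1000000 fragments in all peaks after TMM scaling, and n is 4 mice for WT, C and K and 5 for CK throughout. All 9 GC B-cell marker genes had a promoter peak, with sums of 798 to 872 CPM in WT, 760 to 824 in C, 803 to 815 in K and 743 to 809 in CK, so that 3 of the 5 CK mice lay below WT, and none of the 9 genes was called. Of 5 T-cell markers only Lck had a promoter peak, and Cd3e, Cd3g, Cd4 and Cd8a had none, with 26.6 to 28.5 CPM in WT and 26.7 to 30.7 CPM in CK. Of 5 myeloid markers 3 had one, and Itgam and Lyz2 had none, with sums of 79.3 to 84.0 CPM in WT, 77.8 to 89.2 CPM in K and 80.3 to 85.9 CPM in CK. Most of that sum was Spi1 (75.3 CPM in WT), which B cells also express, while Cd14 and Csf1r had 4.94 and 1.32 CPM. Of 4 plasma cell markers 3 had one, with sums of 155 to 162 CPM in WT, 156 to 176 in C, 163 to 174 in K and 160 to 175 in CK, so that K lay wholly above WT. Of 4 erythroid markers 2 had one, with sums of 47.8 to 50.2 CPM in WT and 47.9 to 53.1 CPM in CK. The plasma cell marker Sdc1 was the only marker gene called in a comparison with WT (0.23 in CK, adjusted p = 0.00749), a value that was 0.05 and not called with libraries centred in GC bins, and the part of other cell types in the results below was not tested. Fragments in 11 single-copy Y chromosome peaks were seen in 9 libraries, at least 1421 each, and at most 1 fragment in each of the other 8. The study describes the mice as female. Both kinds occurred in every genotype, and differences within each kind are given for the called peaks.

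A peak was called when its adjusted p was under 0.01 in edgeR's quasi-likelihood test over all 65483 peaks. In CK, 10 of the 145 peaks were called against WT (6.9%), 9 of them lower and 1 higher. The background over all peaks was 6.84% called, 3.54% higher and 3.30% lower, so the share of called peaks in these loci was close to that of all peaks. The 9 lower peaks made up 6.21% of the 145. In K, 3 of the 145 peaks were called (2.07%), all of them lower, against 1.48% of all peaks in both directions and 0.828% lower. They were 2.44% of the 123 distal peaks away from promoters, against 0.997% called lower of all peaks of that kind. In C, none was called, against 0.160% of all peaks. At an unadjusted p under 0.05, 14 of the 145 peaks passed in C (9.66%, against 8.9% of all peaks), 7 higher and 7 lower, and DESeq2 also called none. With libraries centred in bins of GC content, 10 of the 145 peaks were again called in CK, of which 6 were among the peaks called without it. The 4 calls that ended were the Fbxw7 peak (log2 difference of -0.20 in place of -0.25), the intergenic Sgk1 peak (-0.77 in place of -0.86), the Klhl6 intronic peak (-0.47 in place of -0.59) and the Klhl6 promoter peak (-0.22 in place of -0.33), with adjusted p-values of 0.0101 to 0.0165. The 4 that were added, all lower, included the main promoter peaks of Fbxw7 and Smc3 (-0.16 and -0.17). The others were classed as distal, in the Fbxo11 locus (chr17:87974240-87975832, -0.19) and the Tnfrsf14 locus (chr4:154960710-154962694, -0.24). That class includes promoters of neighbouring genes, 1 peak in the Fbxo11 locus (Msh6) and 3 in the Tnfrsf14 locus, and these calls are not held apart from them. Both calls of CK against C ended as well, and 1 was added there, higher, at the Btg1 peak called in CK. In K the 3 calls stayed under GC centring and 1 was added, at the same Btg1 peak.

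Of the 10 peaks called in CK, 1 was a promoter peak, that of Klhl6, and 9 were distal. They lay in the Sgk1 (3), Klhl6 (2), Tnfrsf14 (2), Fbxw7 (1), Btg1 (1) and Arid1a (1) loci. The 3 peaks called in K, 2 in Sgk1 and 1 in Arid1a, were among them. No peak of Fbxo11, Mga, Smc3 or Tet2 was called in any genotype without GC centring. The median log2 difference of CK from WT over the 123 distal peaks away from promoters was -0.06, against -0.03 over all peaks of that kind, and over the 14 promoter peaks it was 0.03, against 0.06 over all promoter peaks. Over all peaks, 6.39% lay wholly below WT and 6.59% wholly above it in CK. These shares were 5.87% and 5.42% in K, and 2.77% and 2.89% in C. In these bulk libraries, fewer cells with an open site and lower accessibility in each cell cannot be told apart.

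**Figure D1:**
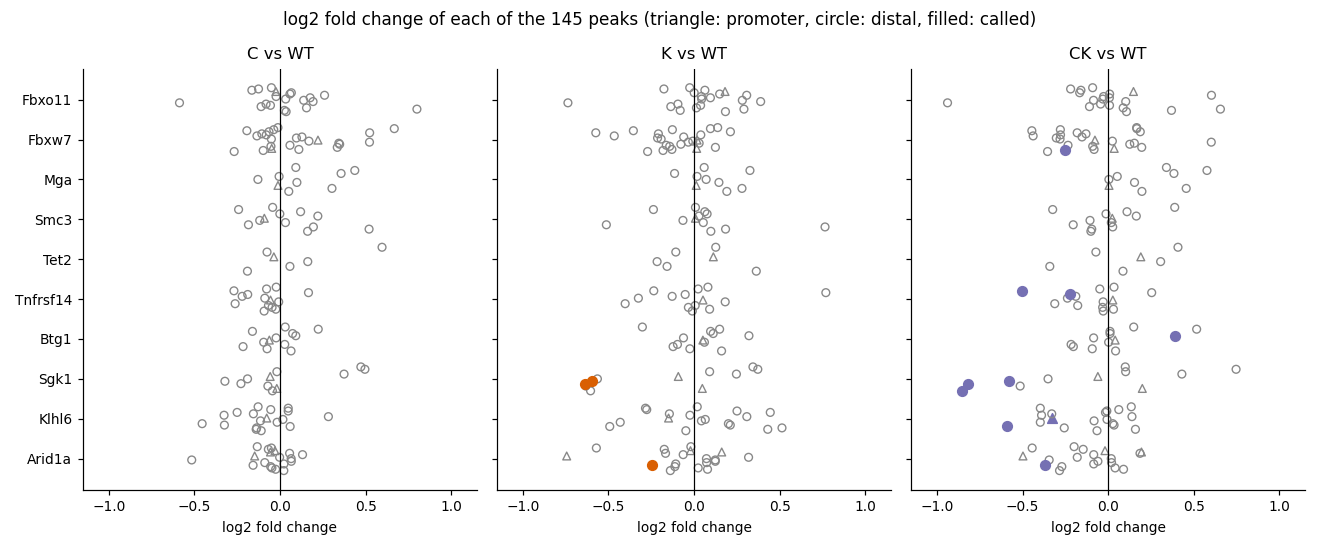
The log2 fold change from WT of each of the 145 peaks is plotted by locus, in 1 panel each for C, K and CK, with triangles for promoter peaks, circles for distal peaks and filled symbols for called peaks. No symbol is filled for C, 3 are filled for K and 10 for CK, and only the Btg1 symbol lies to the right of 0 among the filled ones.

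Sgk1 held the largest called differences, at -0.86 and -0.82 on the log2 scale in CK, and was the only locus whose distal peaks were called as a sum. SGK1 is a serine/threonine kinase downstream of PI3K and mTORC2 that phosphorylates FOXO factors, and the gene is a frequent target of somatic hypermutation in GC-derived lymphomas. Its 11 peaks comprised 2 promoter peaks and 9 distal peaks. Accessibility fell at distal sites in K and CK, while the main promoter peak (chr10:21992602-21996171) differed from WT by -0.09 in K and -0.06 in CK on the log2 scale, with adjusted p-values of 0.255 and 0.386.

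The most accessible distal Sgk1 peak lay in an intron (chr10:21905231-21907849), at -87.8 kb from the main promoter peak, where negative distances are upstream in the direction of the gene. Its accessibility was 10.5, 9.92, 11.5 and 11.7 CPM in the WT mice and 8.31, 7.80, 10.4 and 10.8 CPM in the C mice. It was 6.95, 6.29, 8.53 and 6.23 CPM in the K mice and 6.45, 6.95, 6.96, 5.23 and 5.30 CPM in the CK mice. Every K and CK value lay below every WT value, whereas C overlapped WT. Log2 fold changes were -0.64 in K (SE 0.13, adjusted p = 0.0048) and -0.82 in CK (SE 0.12, adjusted p = 8.94e-05), a level 43.2% lower in CK. CK was also lower than C (log2 fold change -0.59, adjusted p = 0.00582), and the interval of the difference between CK and K ran from -0.44 to 0.08. Among mice with and without Y chromosome signal, CK differed from WT by -0.81 and -0.87. The K call was lost on leaving out WT 3, WT 4, K 1, K 2 or K 4, with adjusted p-values up to 0.0202, whereas the CK call against WT was kept under each of 28 alternatives. The CK call against C was lost on leaving out C 3, C 4, CK 1, CK 4 or CK 5, with adjusted p-values up to 0.0368.

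The second intronic Sgk1 peak (chr10:21946641-21948312), at -46.9 kb, was low in both genotypes with Kmt2d loss. WT values were 7.66, 6.47, 7.64 and 7.59 CPM, and C values were 6.18, 6.0, 5.56 and 5.73 CPM. K values were 4.72, 4.64, 4.92 and 5.08 CPM, and CK values were 4.63, 4.90, 5.44, 4.78 and 4.84 CPM. All 3 mutant groups lay wholly below WT, and K and CK lay wholly below C. On the log2 scale it fell by 0.60 in K (SE 0.10, adjusted p = 0.00141) and by 0.58 in CK (SE 0.09, adjusted p = 0.000241), and the C difference was -0.32 (adjusted p = 0.211), which did not pass. CK and K differed by 0.02, with an interval of -0.18 to 0.23. Among mice with and without Y chromosome signal the CK difference was -0.58 and -0.59. The CK call ended with total Y chromosome signal as a covariate (adjusted p = 0.0244) and where a change of 1.5-fold was also required.

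The remaining called Sgk1 peak, intergenic at chr10:21851132-21852291 and -30.5 kb from the first annotated start, was called in CK and not in K or C. WT values were 2.34, 2.71, 3.47 and 3.54 CPM, C values 2.12, 2.57, 3.79 and 3.29 CPM, K values 1.38, 1.70, 2.46 and 2.35 CPM, and CK values 2.07, 0.969, 1.94, 1.69 and 1.61 CPM. The CK mice lay below the WT mice, and the K mice overlapped them. The log2 fold change was -0.86 in CK (SE 0.21, adjusted p = 0.00686) and -0.60 in K (adjusted p = 0.102). The CK call was lost without WT 2, WT 3, WT 4, CK 2, CK 4 or CK 5, with adjusted p-values up to 0.0338, and the CK difference was -0.43 among mice with Y chromosome signal and -1.28 among those without.

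Summed over the 9 distal Sgk1 peaks, accessibility was 31.7, 29.7, 33.3 and 32.4 CPM in WT and 28.4, 28.2, 29.9 and 29.8 in C. The K mice had 23.1, 21.8, 26.3 and 22.8 CPM and the CK mice 22.8, 23.9, 26, 22.2 and 20.5 CPM. K and CK lay below both WT and C, and 5.52% and 7.76% of all distal sums lay wholly below WT in these genotypes. The sum fell by 0.44 in K (SE 0.07, adjusted p = 0.000884) and by 0.46 in CK (SE 0.07, adjusted p = 5.84e-05) on the log2 scale, tested over the distal sums of 17782 genes. It was 26.1% lower in K and 27.3% lower in CK, and CK was lower than C as well (log2 fold change -0.33, adjusted p = 0.00453). In C the difference was -0.13 (adjusted p = 0.555), and CK and K differed by -0.02, with an interval of -0.17 to 0.12. Within the mice with and without Y chromosome signal, CK differed from WT by -0.45 and -0.49, and K by -0.35 and -0.59, the last from 1 K mouse. Where only the start of the gene record counted as a promoter, the main promoter peak itself entered the distal sum and the log2 differences were -0.19 in K and -0.17 in CK, still called.

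The Sgk1 distal peaks differed by side. All 5 distal peaks upstream of the main promoter peak were below WT in K (log2 fold changes of -0.64 to -0.56) and in CK (-0.86 to -0.35), while the 4 downstream of it were above 0 in both, with values of 0.09 to 0.37 in K and 0.10 to 0.75 in CK, and none of these 4 was called. This division by side was noticed after the values were seen and was given no test. Within 2.5 Mb around the locus, 157 other peaks held 1 called higher (0.637%) and none lower in K, against 0.647% and 0.828% of all peaks. In CK they held 10 called higher (6.37%) and 1 lower (0.637%), against 3.54% and 3.30%.

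**Figure D2:**
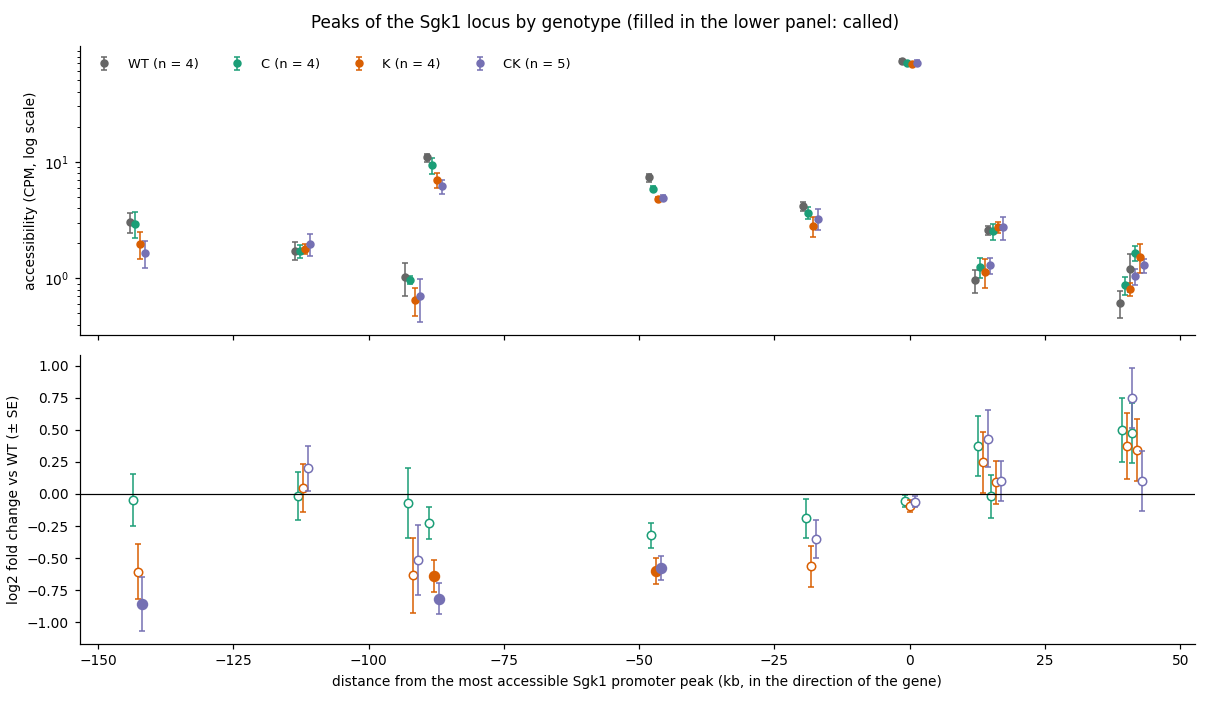
The upper panel shows accessibility of the 11 Sgk1 peaks in CPM on a log axis as the mean with SD per genotype (n = 4, 4, 4 and 5), and the lower panel the log2 fold change from WT with its SE, both against the distance in kb from the main promoter peak in the direction of the gene. The filled symbols, which are called peaks, all lie upstream at -142.7, -87.8 and -46.9 kb with values from -0.86 to -0.58, and in CK both promoter peaks lie between -0.06 and 0.20.

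KLHL6 is a BTB-Kelch adaptor of CUL3 ubiquitin ligases that is needed for GC formation. At the Klhl6 locus 2 of 18 peaks were called in CK, both lower. The promoter peak (chr16:19980787-19983797) had 31.9, 39.1, 37.9 and 43.9 CPM in WT and 36.5, 34.6, 34.5 and 39.2 in C. Values were 34.2, 36.8, 33.6 and 33.2 CPM in K and 28.8, 28.3, 31.6, 30.7 and 32.4 CPM in CK. The CK mice were the lowest group, though WT 1 lay among them. It fell by 0.33 on the log2 scale in CK (SE 0.07, adjusted p = 0.00212), or 20.5% lower, and the K difference was -0.15 (adjusted p = 0.245). Without WT 4 it was -0.26 and no longer called (adjusted p = 0.0179), and within mice with and without Y chromosome signal it was -0.25 and -0.41.

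The Klhl6 intronic peak (chr16:19960413-19962492), at 20.8 kb from the promoter peak, held the octamer and E2A matches shown above. Its accessibility was 4.52, 5.95, 6.23 and 6.04 CPM in WT and 5.71, 6.0, 5.81 and 6.21 in C. In K it had 3.87, 3.40, 4.87 and 4.01 CPM, and in CK 3.59, 3.82, 4.17, 2.94 and 4.44 CPM. CK lay below WT and C, and K lay below C and overlapped WT at its lowest mouse, WT 1. The log2 fold change from WT was -0.59 in CK (SE 0.13, adjusted p = 0.00282), -0.49 in K (adjusted p = 0.0312, not called) and 0.06 in C. CK was called against C as well (log2 fold change -0.65, adjusted p = 0.0038). Leaving out WT 3 or WT 4 ended the call against WT, with adjusted p-values up to 0.0152, and leaving out C 2, C 4, CK 1 or CK 4 ended that against C, with values up to 0.0184. The CK difference from WT was -0.68 among mice with Y chromosome signal and -0.57 among those without. The 17 distal Klhl6 peaks summed to 115 ± 7.0 CPM in WT and 106 ± 9.26 in CK (SD), a log2 difference of -0.11 (adjusted p = 0.126).

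FBXW7 and FBXO11 are F-box adaptors of SCF ubiquitin ligases, the former for MYC, cyclin E and NOTCH, the latter for BCL6, the repressor that maintains the GC state. At Fbxw7, 1 of 24 peaks was called, in an intron of the neighbouring gene Gm37240 (chr3:84801069-84802831) and -12.9 kb from the main promoter peak. It had 36.7, 36.9, 40.4 and 42.4 CPM in WT and 33.7, 35.1, 36.8 and 40.7 in C. The K mice had 35.0, 33.4, 34.4 and 35.2 CPM and the CK mice 32.9, 31.5, 31.6, 32.6 and 35.9 CPM. K and CK lay below WT, and C overlapped it. The log2 fold change was -0.25 in CK (SE 0.06, adjusted p = 0.0052) and -0.18 in K (adjusted p = 0.0864). The CK call was lost on leaving out WT 3, WT 4 or any of CK 1 to CK 4, with adjusted p-values up to 0.0337, and the CK difference was -0.17 among mice with Y chromosome signal and -0.33 among those without. The 2 Fbxw7 promoter peaks summed to 127 ± 4.83 CPM in WT and 129 ± 4.94 in CK (SD), although the main one was called lower under GC centring, as given above.

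At Fbxo11, none of the 20 peaks was called. Its promoter peak (chr17:88063926-88066678) had 120, 116, 108 and 106 CPM in WT, 138, 127, 123 and 123 in K, and 136, 121, 117, 127 and 123 in CK. The K mice lay above the WT mice, as did 11.6% of all promoter sums, and CK overlapped WT. The log2 differences were 0.18 in K (adjusted p = 0.0317) and 0.15 in CK (adjusted p = 0.0343). The sign turned under GC centring, in which the promoter sum differed by -0.07 in K and by -0.18 in CK (adjusted p = 0.000213), so no direction is given for it. Its distal peak with the lowest p in CK, in an intron (chr17:88049327-88049869), differed by 0.60 (SE 0.21, adjusted p = 0.0558).

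ARID1A is a DNA-binding subunit of the BAF chromatin remodelling complex. The Arid1a locus held the call with the lowest adjusted p of the 10, at a peak past the end of the gene (chr4:133658907-133660909) and 93.3 kb from the main promoter peak, whose edge overlapped an untranslated region of Pigv and whose centre was intergenic, 12.7 kb from the nearest coding start, that of Pigv. Its accessibility was 43.5, 40.7, 41.8 and 46.3 CPM in WT and 37.9, 38.6, 38.5 and 39.5 in C. Values were 36.4, 36.9, 36.1 and 35.6 CPM in K and 32.3, 32.3, 32.8, 35.7 and 33.6 CPM in CK. Each mutant group lay wholly below WT, and K and CK lay wholly below C. The log2 fold change was -0.16 in C (adjusted p = 0.241), -0.25 in K (SE 0.05, adjusted p = 0.0052) and -0.37 in CK (SE 0.05, adjusted p = 2.42e-05), 22.5% lower in CK. CK and C differed by -0.21 (adjusted p = 0.0101), just outside the threshold. The K call was lost on leaving out WT 1, WT 3, WT 4, K 1, K 3 or K 4, with adjusted p-values up to 0.0283, and the CK call was lost only when a change of 1.5-fold was also required. Among mice with and without Y chromosome signal, the CK difference was -0.31 and -0.42. Within 2.5 Mb around the Arid1a locus, 438 other peaks held 6 called higher (1.37%) and 18 lower (4.11%) in CK, against 3.54% and 3.30% of all peaks. In K they held 0 higher and 5 lower (1.14%), against 0.647% and 0.828%.

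The main Arid1a promoter peak (chr4:133751613-133754777) had 74.4, 76.9, 67.8 and 67.9 CPM in WT against 85.2, 72.9, 79.6, 84.3 and 88.5 in CK. The groups overlapped, and the log2 difference of 0.19, without GC centring, was not called (adjusted p = 0.025). GC centring turned the sign in CK at the main Fbxo11, Fbxw7 and Smc3 promoters. No value under it is given for this Arid1a peak, whose GC content was 71.5%, so no direction is given for it. The 16 distal Arid1a peaks summed to 333 ± 11.3 CPM in WT and 312 ± 4.36 in CK (SD). Every CK mouse lay below every WT mouse, as held for 7.76% of all distal sums. The log2 difference of -0.09 was not called either (adjusted p = 0.0204). Without peaks at promoters of other genes the difference was -0.16 and was called (adjusted p = 0.00153), as it was by DESeq2 (-0.09, adjusted p = 0.00585) and under GC centring (-0.10, adjusted p = 0.00469). Where only the start of the gene record counted as a promoter it was -0.04 (adjusted p = 0.351).

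TET2 oxidizes 5-methylcytosine, MGA pairs with MAX and represses MYC targets, and SMC3 is part of the cohesin ring that forms chromatin loops. None of their 6, 9 and 12 peaks was called. The Tet2 promoter peak (chr3:133543278-133545576) had 42.2, 41.0, 36.3 and 36.5 CPM in WT and 47.9, 42.4, 43.1, 46.3 and 42.8 in CK. The CK mice lay above the WT mice, as held for 14.5% of all promoter sums. The log2 difference of 0.19 (SE 0.06) did not pass over all peaks (adjusted p = 0.043). The distal Tet2 peak with the lowest p in CK (chr3:133588306-133588592), at -44.0 kb, differed by 0.41 (adjusted p = 0.181).

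At Mga, all 9 peaks had a log2 difference above 0 in CK, from 0.0040 to 0.58, and 8 of 9 did in K, with none called. Under GC centring 7 of 9 were above 0 in CK and 6 of 9 in K. The 8 distal Mga peaks summed to 71.8, 74.8, 71.9 and 72.2 CPM in WT and to 84.6, 78.9, 75.3, 79.6 and 81.4 in CK. The CK sums lay above WT, as held for 10.9% of all distal sums. The difference of 0.14 was not called (adjusted p = 0.0377). Its distal peak with the lowest p (chr2:119872222-119873671), at -24.7 kb, differed by 0.20 (adjusted p = 0.0966). At Smc3, the peak with the lowest p (chr19:53676319-53677573) lay 0.4 kb from the start of Rbm20 and differed by 0.39 in CK (adjusted p = 0.0799), with CK values of 4.23, 4.15, 3.88, 3.74 and 3.86 CPM above the WT range of 2.05 to 3.73 CPM. The Smc3 promoter peak differed by 0.02 in CK, a sign that turned under GC centring (-0.17, adjusted p = 0.00568).

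TNFRSF14 (HVEM) is the surface receptor through which GC B cells engage BTLA on T follicular helper cells. At Tnfrsf14, 2 of 14 peaks were called in CK, both lower, intergenic and upstream of the gene. The nearer one (chr4:154942580-154944637), at -15.1 kb, had 69.1, 61.0, 63.2 and 59.9 CPM in WT and 53.9, 58.8, 56.4 and 53.1 in C. In K it had 58.2, 63.1, 59.7 and 63.3 CPM, and in CK 56.8, 53.1, 56.7, 49.1 and 55.3 CPM. C and CK lay below WT, whereas K overlapped it. In log2 units the difference was -0.22 in CK (SE 0.05, adjusted p = 0.00448), -0.19 in C (adjusted p = 0.176) and -0.05 in K (adjusted p = 0.642). The CK call was lost on leaving out WT 1, WT 3, CK 2 or CK 4, with adjusted p-values up to 0.0239, and the difference was -0.30 among mice with Y chromosome signal and -0.16 among those without.

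The farther Tnfrsf14 peak (chr4:154956644-154957002), at -28.4 kb and only 4.1 kb from the start of Hes5, had 7.88, 9.09, 7.31 and 8.14 CPM in WT and 5.62, 7.13, 6.72 and 7.43 in C. The K mice had 6.95, 6.63, 6.18 and 7.71 CPM and the CK mice 4.68, 6.62, 5.73, 6.18 and 5.36 CPM. The CK mice lay below the WT mice, whereas C and K each overlapped WT. The log2 fold change was -0.50 in CK (SE 0.11, adjusted p = 0.00367), -0.27 in C and -0.24 in K, neither called (adjusted p = 0.497 and 0.259). Leaving out WT 2, WT 4 or CK 1 ended the call, with adjusted p-values up to 0.0181, and the difference was -0.65 among mice with Y chromosome signal and -0.39 among those without. The promoter peak of Tnfrsf14 differed by 0.03 in CK (adjusted p = 0.804).

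BTG1 is an antiproliferative protein that recruits the CCR4-NOT deadenylase to mRNA. The Btg1 locus held the 1 gained peak (chr10:96622523-96623241), 5.4 kb from the promoter peak and over the 3′ untranslated region. It had 11.1, 11.4, 11.8 and 13.6 CPM in WT and 12.8, 13.3, 11.8 and 13 in C. Values were 15, 13.8, 15.9 and 14.9 CPM in K and 14.4, 17.2, 13.6, 16.9 and 16.1 CPM in CK. K and CK lay above WT, CK by a narrow margin between its lowest mouse and WT 4. The log2 fold change was 0.39 in CK (SE 0.09, adjusted p = 0.00311) and 0.32 in K (adjusted p = 0.0365). Under GC centring it was 0.50 in CK (adjusted p = 0.000335) and 0.42 in K (adjusted p = 0.00763), both called. The CK call was lost on leaving out WT 1, WT 2, WT 3, CK 2 or CK 4, with adjusted p-values up to 0.0127, and the difference was 0.48 among mice with Y chromosome signal and 0.30 among those without. The Btg1 promoter peak differed by 0.04. Per length it was level with the main Fbxw7 promoter peak, at 56.9 and 56.6 CPM per kb over all libraries.

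**Figure D3:**
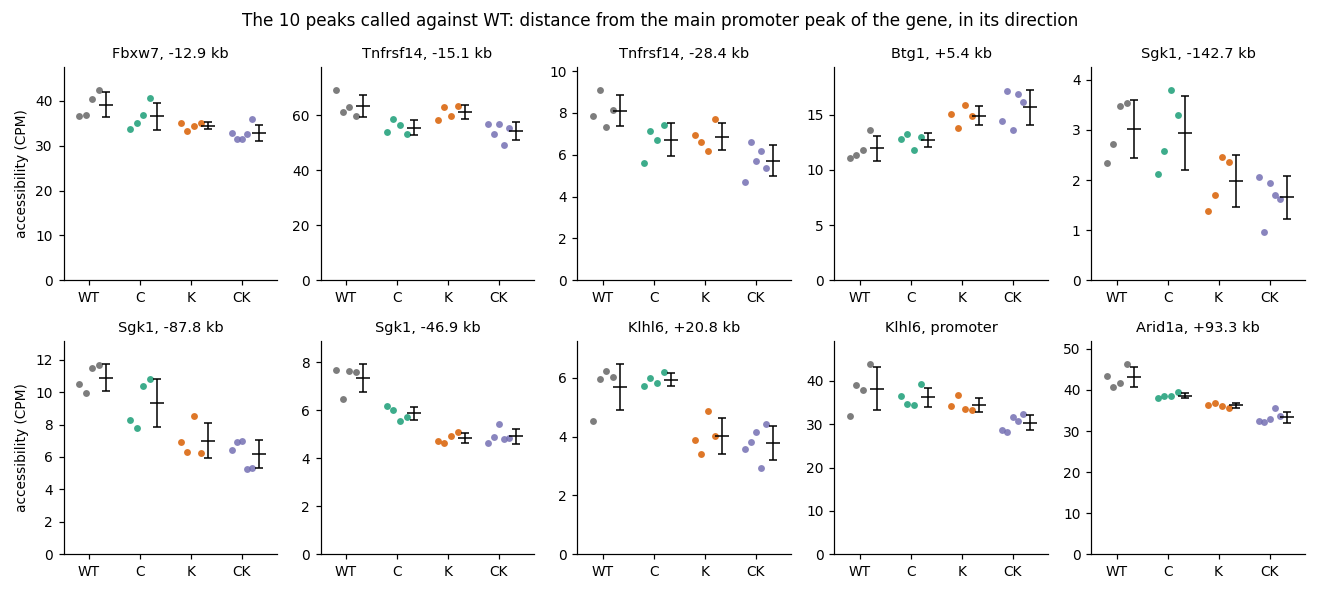
Accessibility in CPM of the 10 called peaks in each mouse, with the mean and SD per genotype (n = 4, 4, 4 and 5) beside the points and the distance in kb from the main promoter peak of the gene in each title. In the 3 Sgk1 panels, both Klhl6 panels, the Fbxw7 panel and the Arid1a panel the means of K and CK are below those of WT and C. In the Sgk1 panel at -46.9 kb and the Arid1a panel C also lies wholly below WT. Among these panels, K overlaps WT in the Sgk1 panel at -142.7 kb and in both Klhl6 panels, and CK overlaps WT in the Klhl6 promoter panel. The Tnfrsf14 panel at -15.1 kb is low in C and CK, and the Btg1 panel is the only one in which CK is higher than WT.

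Promoter accessibility in WT, pooled over all promoter peaks of a gene and given per kb of peak, spanned a several-fold range among the genes. It was 56.5 ± 1.29 CPM per kb at Btg1, 46.0 ± 0.864 at Smc3, 41.6 ± 2.30 at Mga and 40.9 ± 2.42 at Fbxo11 (SD). It was 30.0 ± 1.14 at Fbxw7, 27.3 ± 1.5 at Arid1a, 18.1 ± 0.581 at Sgk1, 17 ± 1.31 at Tet2, 12.7 ± 1.64 at Klhl6 and 12.6 ± 0.637 at Tnfrsf14. Mga and Fbxo11, Sgk1 and Tet2, and Klhl6 and Tnfrsf14 were neighbours in this order that differed by less than the larger of their SDs. The order depends on the pooling, since Fbxw7 and Sgk1 had 2 promoter peaks, Arid1a had 3 and the others had 1. The main promoter peak alone had 56.5 CPM per kb in WT at Fbxw7, level with Btg1, 22.7 at Arid1a and 20.6 at Sgk1. Summed per locus and tested over 13649 genes, promoter accessibility was called for Klhl6 in CK alone (log2 fold change -0.33, adjusted p = 0.000943), 1 of the 10 loci against 12.6% of all genes. The Klhl6 sum holds 1 peak. Its call stayed with GC centring over promoter sums, whereas the call of the peak ended with GC centring over all peaks. No promoter sum of the 10 was called in K or C, against 2.93% and 0.110% of genes, with 2 and 0 at an unadjusted p under 0.05 (26.8% and 8.65% of all genes), and DESeq2 called 1 in K and none in C. Among the distal sums, Sgk1 was the 1 locus of 10 called in K and in CK, against 2.53% and 11.2% of genes, and none was called in C, against 0.450%, with 1 at an unadjusted p under 0.05 (10.3% of all genes) and none by DESeq2. At an adjusted p under 0.05 the CK promoter sums of Fbxo11 (adjusted p = 0.0203) and Tet2 (0.0278) and the distal sums of Arid1a and Mga would also have passed.

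**Figure D4:**
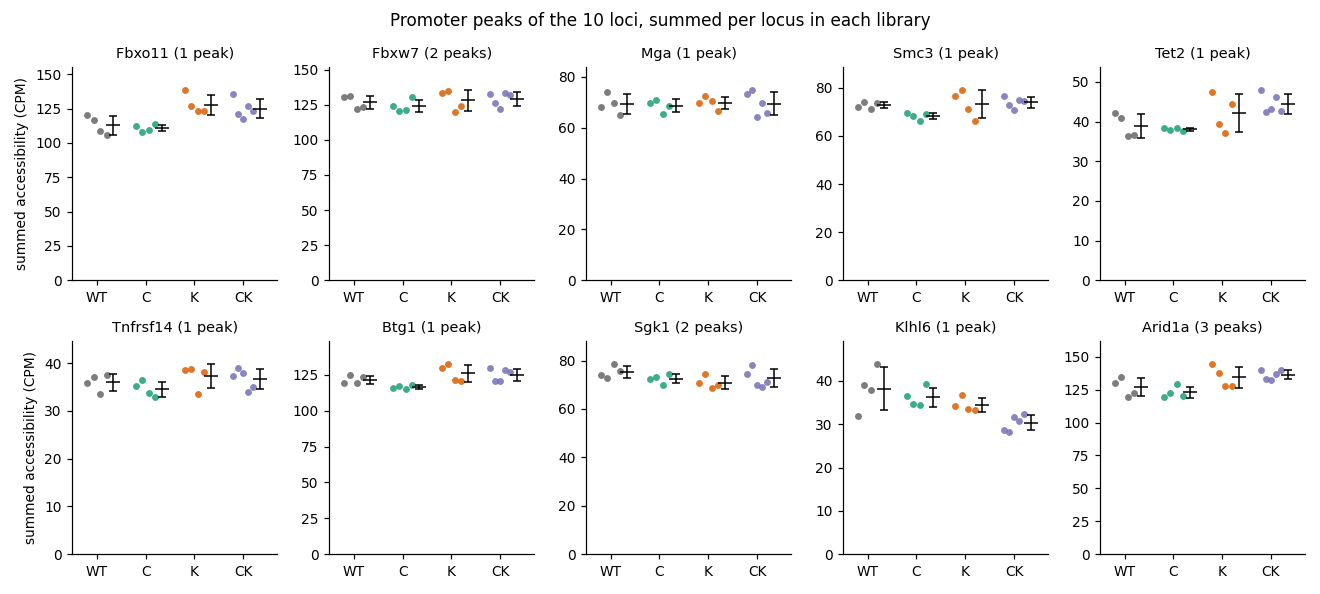
Summed promoter accessibility in CPM of each of the 10 loci in each mouse, with the mean and SD per genotype (n = 4, 4, 4 and 5) and the number of peaks in each title. Klhl6 is the only panel in which CK is called against WT, with a mean of 30.4 CPM against 38.2 CPM.

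**Figure D5:**
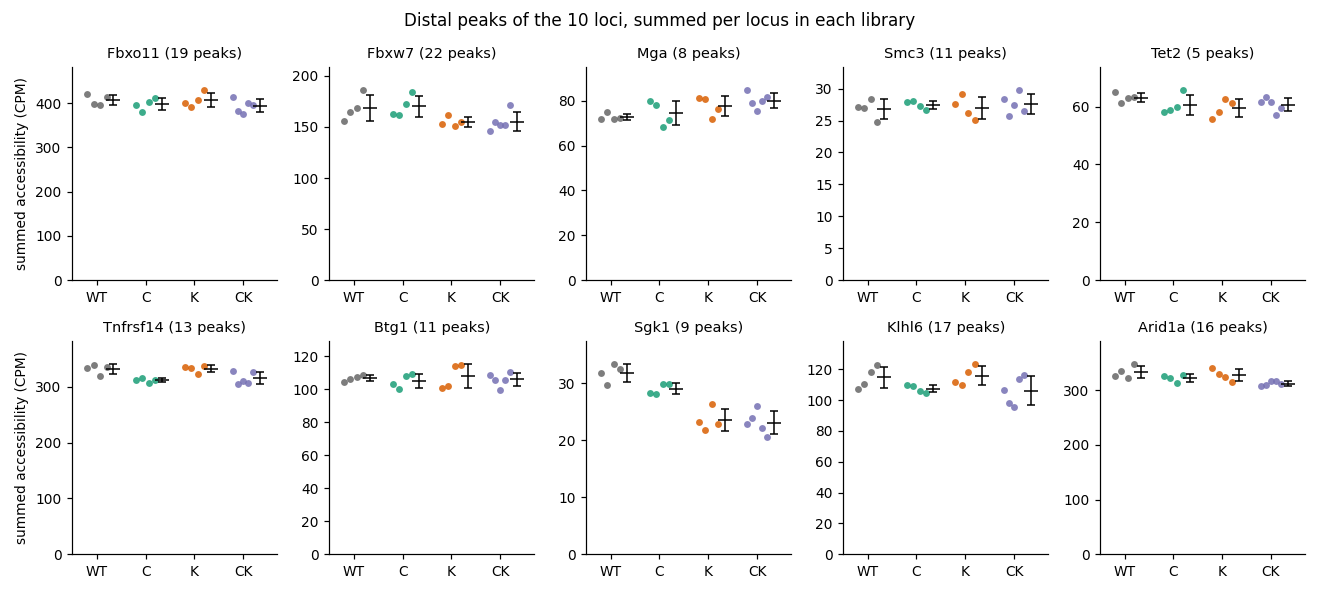
Summed distal accessibility in CPM of each of the 10 loci in each mouse, with the mean and SD per genotype (n = 4, 4, 4 and 5) and the number of peaks in each title. In the Sgk1 panel the K and CK mice, with means of 23.5 and 23.1 CPM, lie below the WT and C mice, with means of 31.8 and 29.1 CPM.

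The mutant genotypes were also compared with each other. Between K and C none of the 145 peaks was called, against 0.788% of all peaks, with 27 at an unadjusted p under 0.05 (18.6%, against 17.9% of all peaks) and 1 called by DESeq2. Between CK and C, 2 were called, both lower, the Sgk1 and Klhl6 intronic peaks given above (1.38%), against 1.68% of all peaks and 0.770% called lower. Between CK and K none was called, against 0.00916% of all peaks, with 13 at an unadjusted p under 0.05 (8.97%, against 7.35%) and none by DESeq2. For no peak was the CK change called different from the added log2 changes of C and K, against 0.0107% of all peaks, with 4 at an unadjusted p under 0.05 (2.76%, against 3.73%) and none by DESeq2. All comparisons with WT shared the same WT mice.

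Genes listed as partners or relatives of the 10 proteins were examined through their promoter sums. Of 74 such genes 73 had a promoter peak. In CK 5 were called higher (6.85%, against 11.5% of all genes) and 1 lower (1.37%, against 1.14%). K had 1 called higher (1.37%, against 2.69%) and C had none. The median log2 difference of the 73 genes in CK was 0.05, against 0.06 over all 13649 genes. Across all genes 91% of the promoter calls in CK were gains, a share that was 51.3% once libraries were centred within GC bins. Under that centring 1 partner gene was called higher in CK (1.37%, against 6.58% of all genes) and 14 lower (19.2%, against 6.23%), and of the 6 genes called in CK without it, Tet3 and Cd5 remained called while Ss18, Dnmt3b, Btg3 and Cnot7 kept their sign at 0.06 to 0.18.

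Among the 8 genes of the TET and DNA methylation list, Tet3, a TET2 paralog, rose from 78.1 ± 4.37 to 95.7 ± 4.28 CPM in CK (SD, log2 fold change 0.29, adjusted p = 4.66e-05) and to 92.5 ± 4.82 CPM in K (adjusted p = 0.00207) and with 0.17 and 0.13 under GC centring. Dnmt3b, a de novo DNA methyltransferase, rose by 0.36 in CK (adjusted p = 0.00131). Among the 13 BAF genes, the subunit gene Ss18 rose by 0.22 (adjusted p = 0.00367), and of the 9 BTG/TOB and CCR4-NOT genes Btg3 and the deadenylase gene Cnot7 rose by 0.30 and 0.19 (adjusted p = 0.00305 and 0.0065). The list drawn up for Tnfrsf14 had 4 genes with a promoter peak, among them Cd5, which encodes a surface receptor that dampens antigen receptor signalling. A link of Cd5 to HVEM was not tested. Cd5 fell by 0.48 in CK (adjusted p = 0.000293), from 30.6 ± 2.18 to 21.8 ± 2.80 CPM (SD). Its level was 23.7 ± 2.28 CPM in C and 23.9 ± 3.19 CPM in K, neither called. Without GC centring, none of the 10 cohesin, 11 MAX network, 5 SCF, 7 SGK1 pathway and 6 CUL3 genes was called. The lowest adjusted p-values in CK in these lists were 0.0107 for Ctcf, the insulator factor that stops cohesin, 0.0116 for the scaffold gene Cul1, 0.0149 for the KLHL6 substrate gene Rc3h2, 0.0571 for the SGK1 substrate gene Foxo1 and 0.0711 for the MGA partner gene E2f6. These values are without GC centring, and no direction is given for them. Under GC centring 2 SCF, 1 cohesin, 2 MAX network, 2 SGK1 pathway and 1 CUL3 genes were called lower in CK and none higher.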

How the data were processed

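Per the labels and the study's methods, the authors processed the reads with an nf-core ATAC-seq pipeline, aligned them to mm10 and counted fragments in consensus peaks. The deposited table, per its file header made with featureCounts 2.0.1 at a minimum overlap of 20%, holds raw fragment counts per peak, and all 17 libraries of sorted GC B cells had a column. The series' 7 other samples were not analysed here. Each library is 1 mouse. Libraries held 17483706 to 21857738 fragments in peaks, and the biological coefficient of variation was 0.0794.

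Counts were analysed in R 4.3.3 with edgeR 4.0.16: TMM scaling, a minimum summed count of 10 (0 peaks fell below it), and 1 quasi-likelihood fit with a coefficient per genotype. P-values were adjusted by the Benjamini-Hochberg method over all peaks, or over all genes for summed promoter and distal counts, and an adjusted p under 0.01 was called. Intervals are 95% intervals of the fit. Code was tested on simulated data. Genes, transcript starts and sequence came from the GRCm38 (mm10) genome with GENCODE M21, and motif shares from the same genome. Tables were handled in Python 3.11.15.

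The text names all 10 genes, the most accessible promoter peak of each, every peak called against WT, the distal peak with the lowest p in CK for each gene without a called peak, and at most 2 partner genes a list. The members and lists were chosen with earlier results of these data known. Alternatives were DESeq2 1.42.0, total-count scaling, a CPM filter, centring in 20 GC bins, a replicate block, Y chromosome covariates, other windows and promoter definitions, and leaving out each library.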

Additional observations from a re-analysis of the deposited data

Results flagged for a closer look

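In 4 of 120 groups of replicates, 1 library stood apart from the rest of its group by Dixon's criterion, which flags about 1 group in 20 by chance. In the Tnfrsf14 promoter sum, K 3 was lowest at 33.5 CPM against 38.2 to 38.7 CPM in the other K mice. In the Mga distal sum, WT 2 was highest at 74.8 CPM against 71.8 to 72.2 CPM. At the intronic Sgk1 peak at -46.9 kb, WT 2 was lowest at 6.47 CPM against 7.59 to 7.66 CPM, and every K and CK mouse was lower still. At the Klhl6 intronic peak, WT 1 was lowest at 4.52 CPM against 5.95 to 6.23 CPM, and the highest CK mouse had 4.44 CPM.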

How the results depend on the processing

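The CK call of the Sgk1 peak at -87.8 kb and the K and CK calls of the Sgk1 distal sum held under every alternative run, with log2 values of -0.97 to -0.74 for the peak. With an adjusted p under 0.05, 7 peaks were called in K, 5 in the contrast of K with C and 9 in that of CK with C, and the loci called by sum were 1 (promoter, K), 3 (promoter, CK) and 3 (distal, CK). DESeq2 called 1 peak between K and C, 4 between CK and C, 1 promoter sum in K and 2 distal sums in CK. Shares over all peaks or genes are not given for that threshold, for DESeq2 or, except where stated, for the alternatives below. Such counts therefore do not show anything particular to the loci. GC centring called 1 peak between CK and C, the Btg1 peak (0.40, adjusted p = 0.00766), and 2 promoter and 3 distal sums in CK. Over all genes, GC centring called 898 promoter sums higher and 851 lower in CK, and 1084 distal sums higher and 1217 lower. It also turned the Fbxo11 promoter sum, to -0.072 in K (adjusted p = 0.163) and -0.18 in CK (adjusted p = 0.000213), and took the share of gains among all called peaks from 51.8% to 43.3% in CK and from 43.9% to 33.3% in K. The cause was not tested.

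A change of 1.5-fold left 3 peaks in CK, and a 10 kb window, which holds fewer peaks, left 5. Total-count scaling called 1 promoter sum in K and 2 in CK, and leaving out promoters of other genes called 3 distal sums in CK. Over all genes, total-count scaling called 564 promoter sums higher and 40 lower in K, and 2025 and 170 in CK. Fitting only the genotypes compared called 1 peak between CK and C. With total Y chromosome signal as a covariate, which itself differed between genotypes, 2 peaks were called in CK (Sgk1 at -87.8 kb and Arid1a), 0 between CK and C, and 0 promoter sums in CK. Calls over all peaks in CK fell as well, from 2320 higher and 2158 lower to 367 and 338. With single-copy Y signal, an alternative chosen after seeing the data, 5 peaks were called between CK and C and 3 promoter sums in CK. Over all genes, promoter sums called in CK went from 1565 higher and 155 lower to 1913 and 187. The labels do not say what the replicate numbers mark. Deviations from the group means correlated at a median of 0.10 over 24 same-number pairs (-0.08 to 0.25, 13 over 0.1). Over 84 other pairs the median was -0.02 (15 over 0.1). Of 16 libraries, 10 correlated best with one of their own number, a hint of shared structure, but not every same-number pair exceeded 0.1. Pairs over 0.1, whether of the same or another number, also shared the presence or absence of single-copy Y signal. The exceptions were WT 4 with K 4 (0.13) and K 4 with CK 5 (0.18). Whether the structure follows number or Y signal was not tested. With the number as a block, 2 peaks were called between K and C, 7 between CK and C, 4 in K and 13 in CK, and 1 promoter sum in K, 3 in CK and 3 distal sums in CK. Calls over all peaks rose as well, in K from 424 higher and 542 lower to 974 and 1172. In CK they rose from 2320 higher and 2158 lower to 3166 and 3440. Over all genes, the block called 896 promoter sums higher and 82 lower in K, and 2067 and 295 in CK. It called 1815 distal sums higher and 1523 lower in CK.

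Leaving out 1 library gave 1 to 3 called peaks in K (lowest without WT 3, WT 4, K 1 or K 4), 5 to 10 in CK (5 without WT 3 or WT 4, 6 without CK 4), and 0 to 3 between CK and C (0 without C 4 or CK 1). Promoter sums called were 0 to 1 in K and 1 to 2 in CK, with the higher numbers without WT 1, and distal sums stayed at 1. Over all alternatives, 336 counts stayed within 1.5-fold and 44 did not, and of the single values 551 kept their side of the threshold, 77 lost it, 18 crossed it and 2 turned sign. Peaks under 2 CPM carry few fragments, which limits what can be seen there.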
